A study of Drosophila melanogaster with 3 samples.

Results

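The 7 genes described here are hb (hunchback), Kr (Krüppel), kni (knirps), knrl (knirps-like), gt (giant), tll (tailless) and cad (caudal) of Drosophila melanogaster, of 13945 protein-coding genes on the 6 chromosome arms used. They were listed by name for their place in the gap gene network, not by any measured value, and all 7 matched the annotation. The list was made with earlier results of these data known. The data are ChIP-seq profiles of the Pax-family transcription factor eyegone (eyg) in fly embryos of 0 to 24 h, both sexes pooled. All embryos came from a transgenic line that stably expresses eyg with GFP at the C terminus, and whole-embryo chromatin sheared to 200 to 800 bp was precipitated with an anti-GFP antibody. The line was profiled in 3 biological replicates and the samples used here hold no other genotype or treatment. The values below are therefore descriptions, read beside the same measure over all genes or the whole arms, with no p-value.

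Gap genes act early in the embryo, where maternal gradients switch most of them on in broad and partly overlapping domains along the body axis. Their products are transcription factors that repress or activate each other and set the stripes of the pair-rule genes. Most of them are used again later, in the nervous system, trachea, gut or head. Whole embryos across this age range pool all of these uses. Strong binding in a few cells and weak binding in many cannot be told apart in such chromatin.

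Values are those of the authors' region lists. Each replicate has a list of peaks and background, called candidates here. The lists of replicates 1, 2 and 3 hold 30000, 30000 and 24609 candidates. Densities, percentiles and missing calls depend on these lengths. A list called on the pooled replicates holds 23721 candidates, and the optimal list holds the 2537 regions kept by the irreproducible discovery rate. Each region has a summit and a signal, which is the authors' own value on a scale that the sources used here do not state. Signal was therefore read within a list, as a rank or as a percentile, which is the percentage of the other regions in that list with a lower signal. A gene window is the gene body with 10 kb on each side. Read counts are not part of these lists, and library depth is unknown.

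The regions that the results turn on are shown as 121 bases around their pooled summit, from the RefSeq copy of the dm6 assembly, on the plus strand. The cad sequence is the only optimal peak inside a gap gene, and the hb and kni sequences are the highest candidates within 1 kb of a transcription start site (TSS) of a gap gene. Capitals mark runs of 6 or more T in hb, copies of GAGAG on either strand in kni, and the summit base in cad, which holds neither.
cad intron, chr2L:20780876-20780996, plus strand: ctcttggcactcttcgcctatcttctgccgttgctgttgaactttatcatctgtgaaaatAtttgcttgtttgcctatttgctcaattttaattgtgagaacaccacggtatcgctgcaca
hb intron, chr3R:8694222-8694342, plus strand: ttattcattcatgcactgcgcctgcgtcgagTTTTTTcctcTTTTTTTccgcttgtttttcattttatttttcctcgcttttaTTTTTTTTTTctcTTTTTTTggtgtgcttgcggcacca
kni upstream region, chr3L:20695588-20695708, plus strand: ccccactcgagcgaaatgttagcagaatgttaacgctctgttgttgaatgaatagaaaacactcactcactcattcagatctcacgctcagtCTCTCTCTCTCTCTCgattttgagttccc

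No gap gene carried an optimal peak within 1 kb of a TSS, where 14.7% of all protein-coding genes did. Candidates below that list were near the TSSs of hb and kni. In the pooled list 2 of the 7 genes had one within 1 kb, against 56.4% of all genes. In replicate 1 it was 3 of 7 (hb, kni and tll, against 61.0%), in replicate 2 also 3 of 7 (hb, kni and cad, against 61.8%) and in replicate 3 it was 2 of 7 (hb and kni, against 56.5%). Only hb and kni had one in all 3 replicates, against 42.8% of all genes. The count gives genes with several start sites more room: hb, kni and cad have 2 annotated TSSs each and the others 1, and the median over all genes is 1.

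With the gene body and 10 kb on each side, cad was the only member that held optimal peaks, 1 of 7 against 46.9% of all genes. Every member held at least 1 pooled candidate (against 93.7% of all genes), and the same was so in replicate 1 (against 97.2%) and replicate 2 (against 95.9%). In replicate 3 it was 6 of 7, with none at tll (against 95.6%). The windows were 21.9 to 43.5 kb long, and the median over all genes was 22.2 kb.

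**Figure D1:**
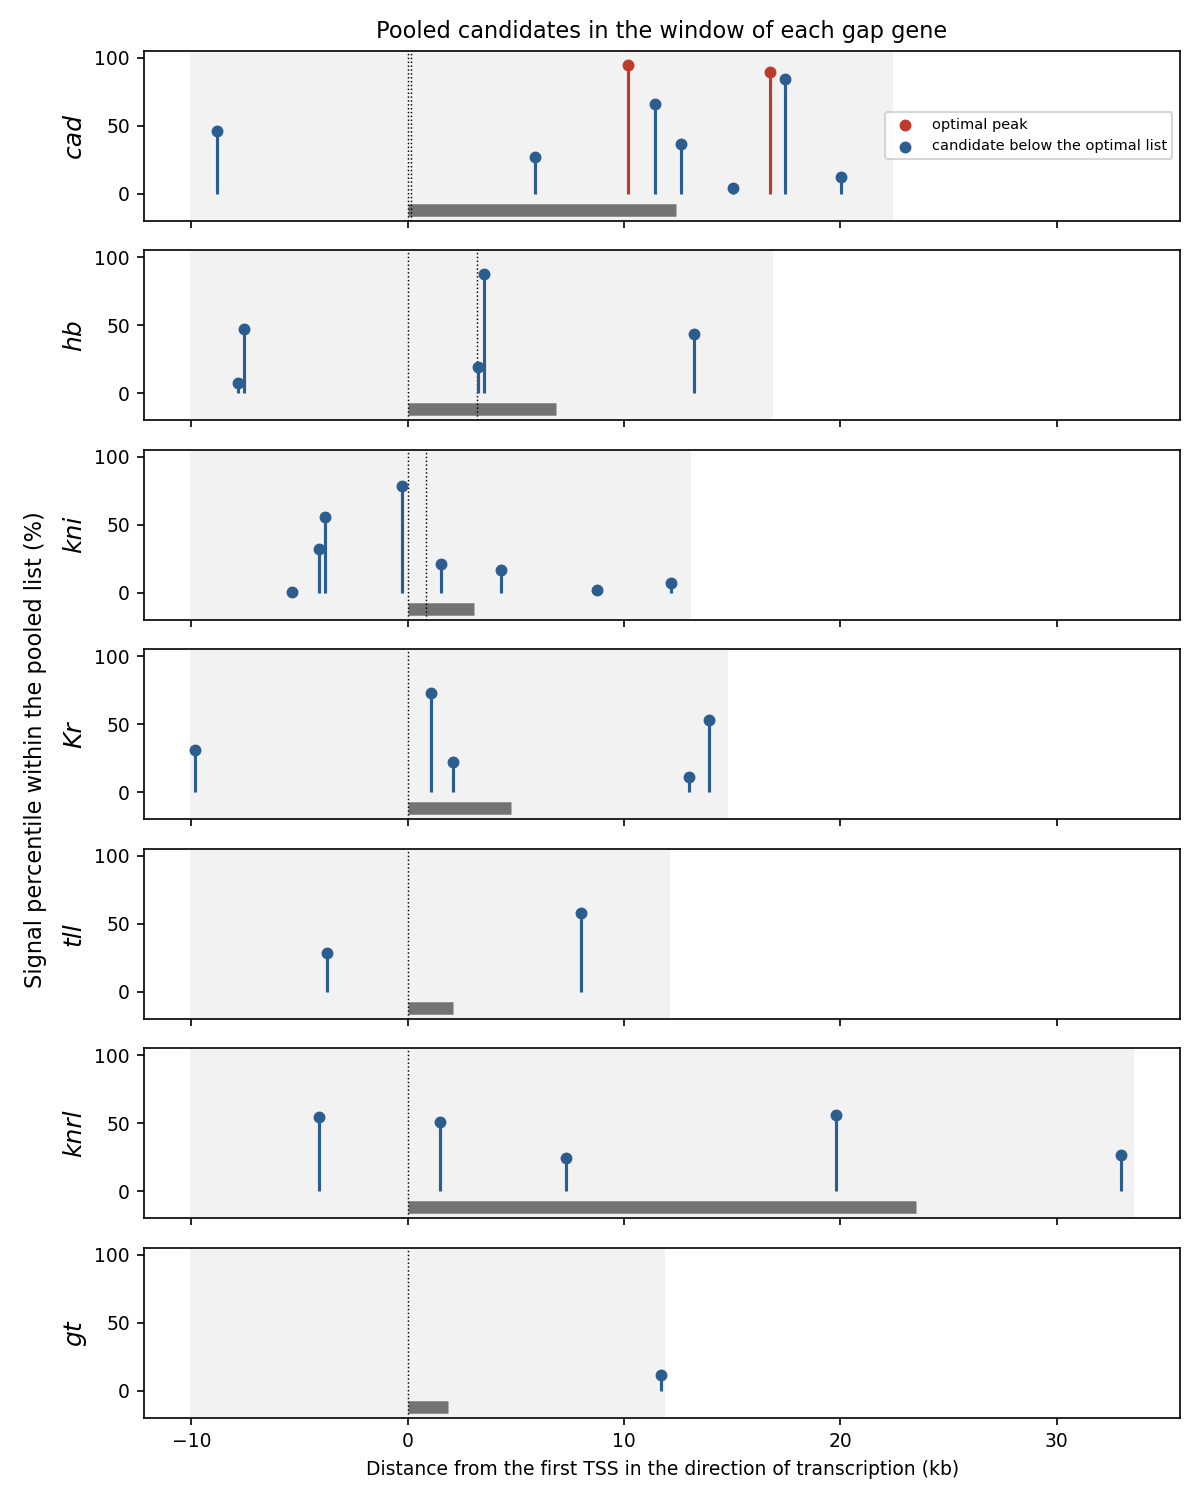
Pooled candidates in the window of each gap gene (grey field), by distance from the first TSS in the direction of transcription (kb) and by signal percentile within the pooled list. The grey bar is the gene body, dotted lines are annotated TSSs, red points are optimal peaks and blue points candidates below the optimal list. Red points occur only in the cad panel, and gt has a single point, at percentile 11.2.

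At cad (FBgn0000251, 2L:20770731-20783135, plus strand), which encodes a homeodomain factor of the posterior embryo and later of the gut, the strongest region of any gap gene window lay inside the gene. The optimal peak at 2L:20780724-20781147 had a pooled signal of 154 and rank 1313 of the pooled list. Its summit was 10042 bp downstream of the nearer cad TSS, in the intron of 9889 bp that makes up intron 1 of 1 in 2 of the 3 annotated transcripts. In the third transcript it is in intron 2 of 2, of 5178 bp. By distance the closest TSS of a protein-coding gene belonged to Pomp, 6720 bp away, which encodes a proteasome assembly chaperone.

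The intronic region was called in every replicate, with signals of 55.5, 51.3 and 38.3 in replicates 1, 2 and 3. Within their own lists these stood at percentiles 97.3, 94.7 and 87.9 (mean 93.3 ± 4.89, SD, n = 3). The replicate summits lay 12, 26 and 4 bp from the pooled summit. The −log10 q was 3.39, 2.66 and 1.88. Only calls that contain the pooled summit were matched, and the pooled list was called on the same libraries. Small shifts between summits are therefore partly fixed by the matching. The region stood lowest in replicate 3. Of the 1313 pooled regions with at least its signal, 51 (3.88%) had a replicate at or below percentile 87.9 or with no call. The region itself is counted and has the lowest signal of that set, so the share is not a comparison at equal signal. The same holds for such shares at hb, kni and Kr below.

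The second optimal peak of the cad window belongs by position to another gene. It lay at 2L:20787287-20787710, 16605 bp from a cad TSS and 157 bp from that of Pomp, with a signal of 109 just above the lowest in the optimal list, 108. Its replicates were further apart, with signals of 15.2, 39.4 and 55.6 in replicates 1, 2 and 3 and percentiles of 34.0, 91.0 and 93.9. Here replicate 1 was the low one.

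The other 7 pooled candidates of the cad window had signals of 38.3 to 88.5. The highest was in an intron of Pomp, 520 bp from its TSS. Next came 1 at 2L:20781933-20782356 with a signal of 61.1, in the last exon of cad within its coding sequence. It was called in all 3 replicates, with signals of 29.5, 17.8 and 18.3 and percentiles of 88.4, 47.3 and 41.6. The candidate at 2L:20776394-20776817 (signal 43.6) lay in an exon of only 1 of the cad transcripts and was called in replicates 1 and 3. A further candidate, with a signal of 49.7, was in the 3′ UTR of the neighbouring formin gene dia. Of the 9 pooled candidates, 1 had cad as the gene of the nearest TSS. Close to the cad promoter itself only replicate 2 had a call, 136 bp upstream (signal 20.4, percentile 61.1), and it overlapped no pooled candidate.

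At hb (FBgn0001180, 3R:8690980-8697822, minus strand), which encodes a zinc-finger factor of the anterior embryo and of early neuroblasts, the highest candidate was not in the optimal list, whose lowest signal is 108. The region at 3R:8694070-8694493 had a pooled signal of 98.8 and rank 3043. Its summit was 318 bp downstream of the second hb TSS, the one nearer the coding sequence, in intron 1 of both annotated transcripts (3153 bp long in the transcript that starts upstream and 283 bp in the other).

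Replicate 3 gave this region a far lower place than the other replicates did. Signals were 42.2, 42.1 and 15.5 in replicates 1, 2 and 3, at percentiles 95.1, 92.2 and 15.9. Replicates 1 and 2 gave it a −log10 q of 2.43 and 2.39, and replicate 3 gave 0.0555. Of the 3043 pooled regions with at least its signal, 84 (2.76%) had a replicate at or below percentile 15.9 or with no call. The mean percentile was 67.7 ± 44.9 (SD, n = 3), with the low value in replicate 3 alone.

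The T-rich strand printed for hb is 55.4% T over its 121 bases, with a longest run of 10. The hb gene lies on the minus strand, so these runs are runs of A in the direction of transcription. A run of 6 T on either strand within 100 bp of the summit is common: it was found at 13 of the 35 pooled candidates of the gap gene windows (37.1%), at 32.2% of all pooled candidates and at 42.6% of optimal peaks.

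The remaining hb candidates were weaker. A second summit 40 bp downstream of the same TSS, in the 5′ UTR, had a pooled signal of 41.5 (percentile 19.3) and was called in replicates 1 and 2 with signals of 16.6 and 26.3. At the upstream TSS there was no pooled candidate within 1 kb, but replicates 2 and 3 had calls 432 and 463 bp downstream of it, at percentiles 66.9 and 52.2. A pair of candidates 7577 and 7840 bp upstream of the gene had pooled signals of 50.1 and 39.0 and no call in replicate 3. The last, with a signal of 48.6, lay in an intron of lncRNA:CR44937, 588 bp from the TSS of CG44227, and was called in replicate 1 only. The nearest optimal peak to an hb TSS was 17850 bp away, beside Unc50.

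The paralogs kni and knrl encode related zinc-finger proteins of the nuclear receptor class that lack a ligand-binding domain, and kni patterns the abdomen. At kni (FBgn0001320, 3L:20692330-20695378, minus strand) the highest candidate was upstream of the gene, at 3L:20695436-20695859, with a pooled signal of 75.9 and rank 5065. The summit lay 270 bp before the first TSS. Signals were 25.8, 27.3 and 21.6 in replicates 1, 2 and 3, at percentiles 83.7, 80.2 and 59.96 (mean 74.6 ± 12.8, SD, n = 3), and the replicate summits were 0, 65 and 107 bp from the pooled one. Among the 5065 pooled regions with at least its signal, 1203 (23.8%) had a replicate as low as its lowest or lacking a call. All 3 libraries called it, none with a −log10 q above 0.892. The CT repeat in the printed sequence matches GAGAG, a motif bound by the GAGA factor, on the minus strand. This motif was within 100 bp of 10 of the 35 gap gene candidates (28.6%), of 24.5% of all pooled candidates and of 25.5% of optimal peaks.

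The kni window held 8 pooled candidates, and for all of them the nearest TSS was that of kni. The other 7 had signals of 37.6 to 54.0. Of these, the candidates 3843 and 4123 bp upstream had signals of 54.0 and 44.8. The first was called at percentiles 1.97 and 71.1 in replicates 2 and 3, and the other at 56.1 and 45.5 in replicates 1 and 3. A candidate in the coding exon, 719 bp downstream of the second TSS, was called in replicate 1 only. The weakest, 5365 bp upstream, had no call in any replicate. The nearest optimal peak was 76684 bp from a kni TSS, in an intron of Pitslre.

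At knrl (FBgn0001323, 3L:20597141-20620659, minus strand), which has the longest of the 7 windows, none of the pooled candidates lay within 1 kb of the TSS and none was called in all 3 replicates. Its 5 candidates had signals of 42.8 to 54.4, so no single one stood out. The highest, at 3L:20600661-20601084 in intron 3 of 3, had signals of 14.4 and 31.2 in replicates 1 and 3 and no call in replicate 2. The percentiles, 25.8 and 82.2, were far apart. The candidate nearest the TSS, 1487 bp downstream in intron 1 of 3, had a pooled signal of 51.8, with 17.2 and 24.2 in replicates 1 and 2 and no call in replicate 3. Upstream, 4126 bp from the TSS, a candidate of signal 53.4 was called in replicates 1 and 3 at percentiles 70.7 and 76.6. The nearest optimal peak to the knrl TSS was 80057 bp away, beside Rcd2. TAATTA, the core site of homeodomain proteins, was within 100 bp of 3 gap gene candidates, 2 at knrl and 1 at kni (8.57% of 35, against 10.96% of all pooled candidates and 13.7% of optimal peaks).

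At Kr (FBgn0001325, 2R:25226611-25231394, plus strand), which encodes a zinc-finger repressor of the central embryo, the highest candidate was in the gene but past the 1 kb limit. It lay at 2R:25227496-25227919, 1097 bp downstream of the TSS, in the coding part of exon 2 of 2, with a pooled signal of 68.1 and rank 6399. Signals were 27.0, 22.9 and 21.1 in replicates 1, 2 and 3, at percentiles 85.4, 70.4 and 57.9 (mean 71.2 ± 13.7, SD, n = 3). The 3 replicate summits were 14, 18 and 52 bp from the pooled summit, with the same limit from the matching as at cad. The −log10 q of these calls was low, at 0.835, 0.527 and 0.308 in replicates 1, 2 and 3. A replicate as low as its lowest, or no call, was found for 2154 (33.7%) of the 6399 pooled regions with at least its signal. The other 4 candidates had pooled signals of 39.6 to 52.8, and none was called in all 3 replicates. Of these, 1 lay in the same coding exon, with a call in replicate 3 only, and 3 in introns of CG9380, a gene whose annotated span extends over Kr. The nearest optimal peak was 59293 bp from the Kr TSS.

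The fewest candidates were at gt and tll. The window of gt (FBgn0001150, X:2427113-2428967, minus strand), which encodes a basic leucine zipper repressor, held a single pooled candidate, of signal 39.7 (percentile 11.2). It lay 11712 bp downstream of the gt TSS with a call in replicate 2 only, and the nearest TSS was that of CG12496. The replicate calls nearest the gt TSS were 5196, 4294 and 9261 bp away in replicates 1, 2 and 3, with signals of 15.3, 14.1 and 14.6, at 3 separate places. No optimal peak came closer than 99456 bp.

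At tll (FBgn0003720, 3R:30852315-30854400, plus strand), an orphan nuclear receptor gene of the embryo's ends and the brain, there were 2 pooled candidates. The first, 3738 bp upstream of the TSS, had a pooled signal of 43.9, with 24.5 and 13.3 in replicates 1 and 2. The second, 7999 bp downstream and nearest to Cpr100A, a cuticle protein gene, had 55.4, with a call of 27.3 in replicate 1 only. Replicate 3 had no call in the whole window. Within 1 kb of the TSS only replicate 1 had one, in the coding exon 825 bp downstream, with a signal of 13.2 (percentile 11.9). The nearest optimal peak was 34833 bp away, in an intron of cindr.

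By the highest pooled signal in the window the order was cad (154), hb (98.8), kni (75.9), Kr (68.1), tll (55.4), knrl (54.4) and gt (39.7). In the replicate percentiles the cad region (87.9 to 97.3) lay above those of kni (59.96 to 83.7) and Kr (57.9 to 85.4) with no overlap. The ranges of kni and Kr overlapped almost entirely, and that of hb (15.9 to 95.1) overlapped all the others. The regions of tll, knrl and gt lacked a call in at least 1 replicate. Replicate 3 was the lowest of the 3 in each of the cad, hb, kni and Kr regions, as it was in 38.1% of the 8862 pooled candidates called in every replicate.

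**Figure D2:**
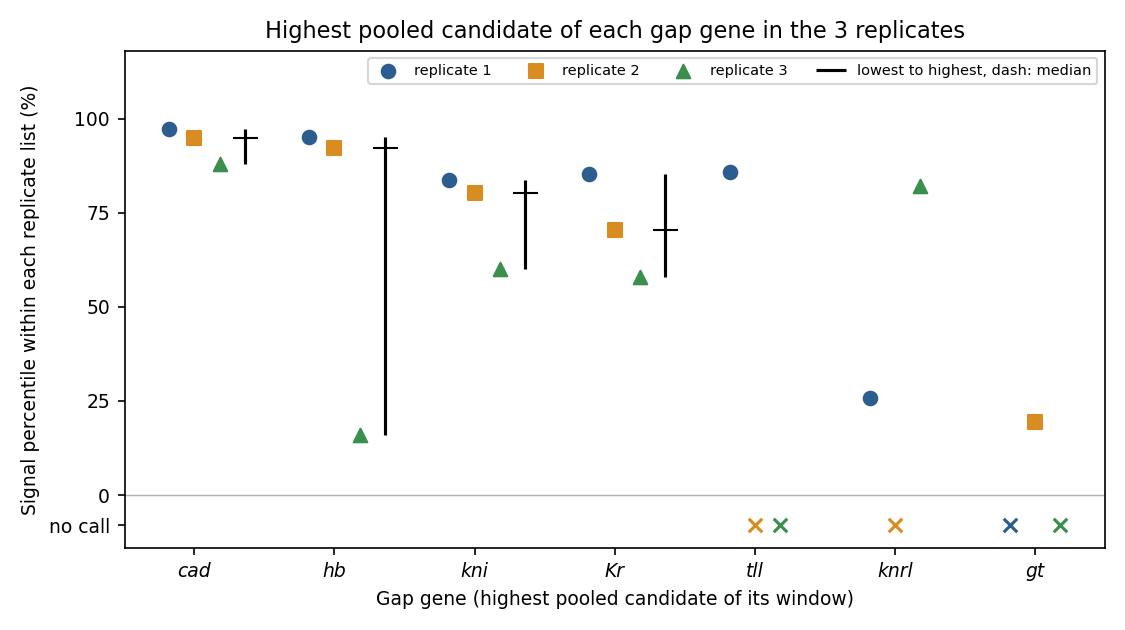
Signal percentile within each replicate list of the highest pooled candidate of each gap gene. Points are replicates, crosses mark no call at the pooled summit, and black lines run from the lowest to the highest of 3 calls with a dash at the median. The cad region lies at 87.9 to 97.3 in all 3 replicates, and the hb region falls to 15.9 in replicate 3.

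The density of candidates in the gap gene windows lay above or below that of the arms depending on the list, the flank and whether the cad window was counted. The 7 windows together cover 195 kb, with no overlap, and held 35 pooled candidates, 1.80 per 10 kb against 1.77 over the 6 arms. In replicates 1, 2 and 3 the density was 2.47, 1.64 and 1.64 per 10 kb, against 2.24, 2.24 and 1.84 over the arms, a mean ratio of 0.910 ± 0.184 (SD, n = 3). The pooled list and replicate 1 were above their arms, and replicates 2 and 3 below theirs. Without the cad window the density was 1.60 per 10 kb in the pooled list and 1.97, 1.30 and 1.30 in replicates 1, 2 and 3, each below its arms. This setting was chosen after the data were seen. In every list the cad window is denser than the 7 windows together, so leaving it out must lower each density. With 5 kb on each side of the gene body and all 7 windows the pooled density was 1.61, below the arms, and with 20 kb it was 1.94, above them. With flanks of 5, 10 and 20 kb replicate 1 was always above its arms and replicate 2 always below. Replicate 3 was above its arms with 20 kb only. Regions with a −log10 q of at least 2 numbered 2, 3 and 1 in the windows in replicates 1, 2 and 3, or 0.103, 0.154 and 0.0514 per 10 kb, against 0.153, 0.219 and 0.209 over the arms. Optimal peaks came to 0.103 per 10 kb against 0.189, both from the cad window, and to 0 in the other 6 windows, which cover 162 kb.

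Among the members the mean density over the 3 replicates was highest at cad, 3.91 ± 0.891 candidates per 10 kb. It was 2.60 ± 0.434 at kni, 1.88 ± 0.840 at Kr, 1.61 ± 0.775 at hb, 1.38 ± 0.829 at knrl, 0.906 ± 0.906 at tll and 0.763 ± 0.528 at gt (SD, n = 3 each). The replicates of the cad window (3.39 to 4.94) lay above every replicate of every other member. That window also takes in sequence of dia, Pomp and vari, and 1 of its 9 pooled candidates had cad as the gene of the nearest TSS. The share of all protein-coding gene windows that are as dense was not measured. From kni down, the ranges of neighbours in this order overlapped.

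**Figure D3:**
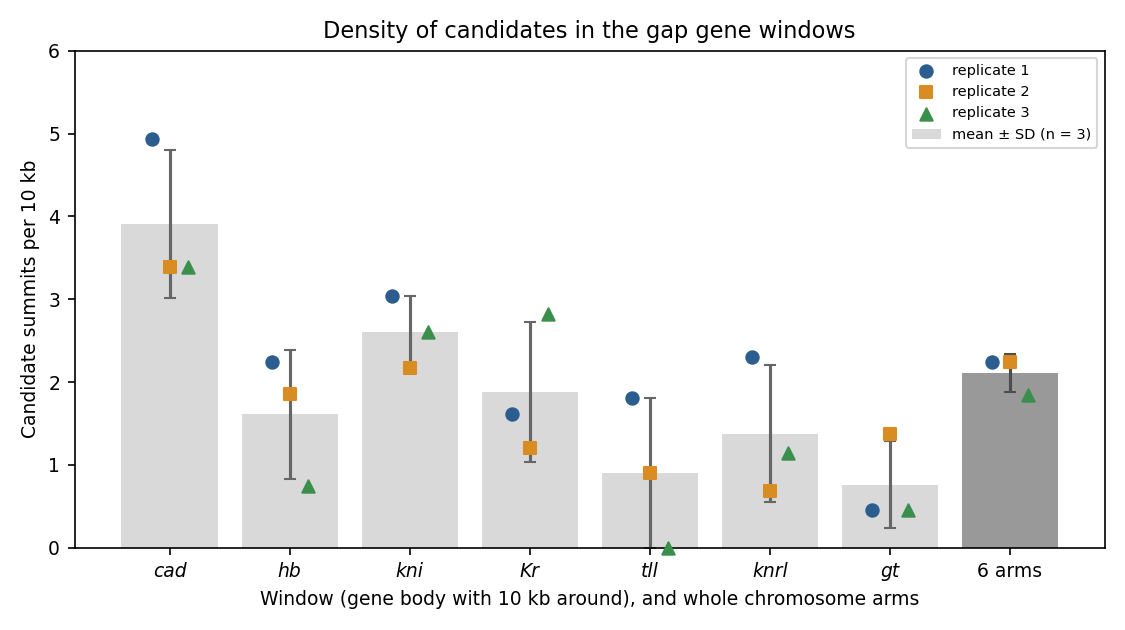
Candidate summits per 10 kb in the window of each gap gene and over the 6 chromosome arms. Points are the 3 replicate lists, bars the mean and error bars the SD (n = 3). All 3 points of cad lie above those of the other members, and tll has no candidate in replicate 3.

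The candidates of the gap gene windows were mostly low in the pooled list, with a median percentile of 31.8, where the list's own median is at 50 by construction. In the replicate lists the medians were 40.8, 53.1 and 45.7. Of the 35 pooled summits, 8 (22.9%, 95% exact interval 10.4% to 40.1%) lay inside a call of every replicate. The share of all pooled candidates, 37.4%, is within that interval. Those 8 were 5 in the cad window and 1 each at hb, kni and Kr. For each of the 5 in the cad window the nearest TSS was that of dia or Pomp. Some of these 5 lay in the intron or last exon of cad, and others in or beside dia or Pomp. A further 15 were in 2 replicates, 11 in 1 and 1 in none. The pooled list was called on the same libraries, so the recovery is not independent, and the interval covers counting error only. It also treats the candidates as independent draws, although many share a window. The comparison with all pooled candidates was not matched on signal.

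By location, 17 of the 35 summits lay between genes (48.6%, against 25.8% of all pooled candidates), 11 in introns (31.4% against 43.3%), 5 in coding exons (14.3% against 16.2%) and 1 each in a 5′ UTR and a 3′ UTR. The windows include 10 kb on each side of the gene body, and the share of their own sequence that lies between genes was not measured. For 20 of the 35 summits the gap gene had the nearest TSS, and for 15 another gene did. The median GC content of 201 bases at the summit was 41.8%, against 42.8% for all pooled candidates and 37.8% for optimal peaks. Other motifs were rare at these summits. CAGGTAG, bound by the early activator Zelda, was at 1 (hb, 40 bp from a TSS), where 1.16% of all pooled candidates had it. TAATCC, the core site of Bicoid, was also at 1 (the cad exon candidate), against 5.85%. The promoter elements TATCGATA and GGTCACACT were at none of the 35, against 1.93% and 0.978% of all pooled candidates. A motif match describes the letters only.

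The gene lists around the gap genes differed in how many members carried an optimal peak near a TSS. None of the 7 gap genes carried one, and 8 of 16 regulators that act before or on them did. The highest were gro, a corepressor (480.3), brat, a translational repressor of hb mRNA (409), Raf, a kinase of the terminal pathway (316), and Trl, which encodes the GAGA factor (207). Of the head and terminal gap genes 1 of 12 did, fkh (386), and of the pair-rule genes and the Hox genes none of 9 and none of 8. The share of all protein-coding genes with such a peak was 14.7%. With pooled candidates the gap genes had 2 of 7, against 12 of 16 regulators, 11 of 12 head and terminal genes, 6 of 9 pair-rule genes and 7 of 8 Hox genes. Over all genes it was 56.4%. The lists were not matched for the number of TSSs per gene. The differences between the lists were not tested, and slp1 and slp2 stand in both the head and the pair-rule list. In the gene body with 10 kb around, optimal peaks were at 1 of 7 gap genes, against 11 of 16 regulators, 6 of 12 head and terminal genes, 4 of 9 pair-rule genes and 2 of 8 Hox genes. Over all genes it was 46.9%. Window length differs between the lists, with a median of 24.8 kb for the gap genes, against 33.9 kb for the regulators, 23.2 kb for the head and terminal genes, 22.5 kb for the pair-rule genes and 50.6 kb for the Hox genes.

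Over the 5972 genes with a candidate near a TSS in every replicate, the pattern most like that of hb was at Aps. The highest candidates near a TSS stood at percentiles 95.1, 92.2 and 52.2 for hb, against 92.2, 93.2 and 50.9 for Aps, a distance of 3.31 percentage points over 3 replicates. The hb value in replicate 3 comes from the call at its upstream TSS. For kni it was CG14696. The percentiles were 83.7, 80.2 and 59.96 for kni, against 82.0, 79.8 and 60.1 for CG14696, a distance of 1.72 percentage points.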

How the data were processed

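ChIP-seq regions were compared in 3 biological replicates of 1 group, numbered as in the labels. According to the deposited file listings, the authors called regions per replicate against a control and on the pool, and took the optimal list from the irreproducible discovery rate. Aligner and caller: not given in the sources used here. The authors deposited, per region, a signal value of unstated scale and a −log10 q. The dm3 lists and the control library were not used here.

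Summits of the dm6 lists were set against Ensembl release 115 gene models (BDGP release 6.54, without transposable elements) and RefSeq sequence. All regions lay within the lengths of the 6 arms. Coordinates are 1-based. A pooled summit counted as called in a replicate when it lay inside a call of it. Where annotations overlapped at a summit, coding exons took precedence, then UTRs (5′ before 3′), other exons and introns. Counting near TSSs was tested on simulated data. Members and lists were chosen with earlier results of these data known, and the run of 6 T after its sequence was seen. Named genes are the members, the genes nearest their candidates, and up to 4 per list with an optimal peak near a TSS. The genes beside the nearest optimal peaks were added after their values were seen. Of the list entries 3 matched as synonyms (nos, phl and h). Distances, flanks, overlap, thresholds and replicates were varied. Python 3.11.15, numpy 2.4.6, pandas 2.3.3 and scipy 1.17.1 were used.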

Additional observations from a re-analysis of the deposited data

How the results depend on the processing

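The count of 0 gap genes with an optimal peak near a TSS held at 500 bp, at 2 kb and with any overlap of the region. At 2 kb, 4 members had a pooled candidate (hb, Kr, kni and knrl) and 4 had candidates in all 3 replicates (hb, Kr, kni and cad). With a flank of 20 kb, 2 members held an optimal peak, hb and cad. Optimal peaks per 10 kb came to 0.161 with a flank of 5 kb and to 0 without the cad window, a setting chosen after seeing the data. The pooled density, 1.80 per 10 kb against 1.77 over the arms, turned below the arms with a flank of 5 kb (1.61) and without the cad window (1.60), and was 1.94 with 20 kb. In replicate 3 it was 1.94 with 20 kb, above its arms (1.84), and 1.64 with 10 kb, below them. Pooled candidates with a −log10 q of at least 2 came to 0.103 per 10 kb, against 0.214 over the arms. The median percentile, 31.8 with a flank of 10 kb, was 43.6 with 5 kb and 46.2 with 20 kb. Without 1 replicate, the share of pooled candidates called in every replicate left was 31.4% to 40.0%, against 22.9% with all 3, where more calls are required, and the members with calls in every replicate left numbered 2. The dm3 lists were not run. No paired analysis was possible because only 1 group exists. With 3 replicates no test for a sample far from the others was made. The unknown depth limits what the absence of a call says.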
